A study of Mus musculus with 10 samples.

Results

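Small RNA of mouse embryonic stem cells that lack both Ago1 and Ago2 (Ago12_KO) was set against small RNA of the same stem cell line without Dicer (Dicer_KO). The comparison used 4 of the 10 libraries of the series, 2 for Ago12_KO and 2 for Dicer_KO, and covered all 1907 mature miRNA entries of the deposited count table. Members were taken by their genotype labels, and levels are shares of each library's column total, given as CPM, the counts scaled to a total of 1000000. The 4 libraries came from E14 cells of 129/Ola background, kept in serum medium with LIF on gelatine. The Ago12_KO libraries carry the genotype label Ago1&Ago2 double knockout and 1 shared date-like code. The Dicer_KO libraries carry the label Dicer knockout and the names of 2 clones, C1 and H11. The labels name no allele for any knockout and do not say whether the Ago12_KO libraries are separate clones. The 2 WT libraries, unmodified E14 cells at passages P25 and P33, are given as levels beside the comparison. The remaining 4 libraries, from Dgcr8_KO and Drosha_KO cells, only helped to estimate the spread.

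A miRNA is made in steps. The Microprocessor, formed by Drosha and Dgcr8, cuts a hairpin out of a longer transcript, and Dicer then trims the loop to leave a short duplex of a 5p and a 3p strand. An Argonaute protein takes up the duplex, keeps one strand as the guide and discards the other, and a guide held in Argonaute is protected from decay. Dicer_KO cells therefore lack the step that makes the duplex, whereas Ago12_KO cells keep Dicer and lack the main Argonautes that hold its product. Mouse cells also carry genes for Ago3 and Ago4. The mRNAs of Ago1, Ago2, Ago3, Ago4 and Dicer1 were not measured here, so the knocked-out genes could not be checked in these libraries.

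The sequences on which the comparison turns are given from RefSeq on GRCm38.p6, written 5′ to 3′ with the seed, bases 2 to 8, in capitals. The first set holds 3 of the entries that filled the Dicer_KO libraries. RefSeq places the hairpin of miR-3963 at chr3:151023792-151023862 on the minus strand and that of miR-6240 at chr5:114851948-114852064 on the plus strand, with no other annotated gene at either. The hairpin of miR-5126 lies at chr1:84695839-84695915 on the plus strand, antisense to an exon of Dner.
miR-3963: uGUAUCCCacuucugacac
miR-6240: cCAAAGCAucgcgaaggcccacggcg
miR-5126: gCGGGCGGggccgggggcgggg

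The second set holds hairpins whose arms behaved differently. Both arms of miR-92a-1 come from chr14:115044427-115044506, plus strand, in an exon of the non-coding gene Mir17hg, and the 3p sequence is also encoded by a copy on the X chromosome. Both arms of miR-295 come from chr7:3220773-3220841, plus strand, antisense to an exon of Nlrp12. The 3p arms of miR-295 and miR-294 share the seed AAGUGCU.
miR-92a-1-5p: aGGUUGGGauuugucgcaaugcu
miR-92a-3p: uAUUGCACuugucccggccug
miR-295-5p: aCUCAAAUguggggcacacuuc
miR-295-3p: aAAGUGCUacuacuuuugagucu
miR-294-5p: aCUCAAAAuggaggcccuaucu
miR-294-3p: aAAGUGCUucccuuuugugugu

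The third set holds neighbours from 1 cluster, on the minus strand of chromosome 6, whose shares of the column totals differed in opposite directions; miR-182-5p had no call once the 5 leading Dicer_KO entries were left out of the totals. The hairpin of miR-182 lies at chr6:30165918-30165992 and that of miR-183 at chr6:30169668-30169737, with no other annotated gene at either.
miR-182-5p: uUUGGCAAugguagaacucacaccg
miR-183-5p: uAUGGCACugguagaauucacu

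The libraries differed in depth. The Ago12_KO libraries held 349312 and 229407 counts and the Dicer_KO libraries 45222 and 37476 counts, so that the mean total was 6.998 times as large in Ago12_KO. A single count was worth 2.86 to 4.36 CPM in Ago12_KO and 22.1 to 26.7 CPM in Dicer_KO. The spread of replicates exceeded counting error: the chi-square divided by its degrees of freedom was 37.7 for the Ago12_KO pair and 5.95 for the Dicer_KO pair. The Pearson correlation of log2(CPM + 50) over 481 entries was 0.977 within Ago12_KO, 0.949 within Dicer_KO and 0.687 to 0.697 across the groups. Nothing in the labels says that the replicates are separate cultures, so p-values measure the spread between these libraries, and the labels' dates and clones cannot be told apart from the genotypes. Intervals and floors given below cover counting error only.

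The most visible difference was what filled the libraries. Of the 5 most abundant Ago12_KO entries, miR-92a-3p, miR-182-5p and miR-295-3p were also abundant in WT, whereas miR-92a-1-5p and miR-6539 were not. In Dicer_KO, the 5 entries with the highest mean share there, all minor in WT and miR-6539 among them, held most of the counts. These 5, miR-3963, miR-6240, miR-5126, miR-6539 and miR-5099, together held 7.92% and 9.43% of the Ago12_KO libraries, against 70.9% and 74.5% of the Dicer_KO libraries and 0.732% and 0.600% of the WT libraries. The first entry of the table was miR-92a-3p in Ago12_KO replicate 1, with 17.3% of counts, and miR-182-5p in Ago12_KO replicate 2, with 16.9%. In both Dicer_KO libraries it was miR-3963, with 32.3% and 25.4%. The 90% of counts that are most concentrated lay in 56 and 58 entries in Ago12_KO, against 15 and 14 in Dicer_KO and 58 and 57 in WT. At a common depth of 37476 counts, an expected 424.5 ± 3.9 entries were detected in Ago12_KO and 335.7 ± 11.7 in Dicer_KO (SD, n = 2 each), beside 427.6 and 421.9 in the WT libraries. Without the listed tRNA, rRNA and snoRNA entries and miR-3963, at a depth of 19773 counts, the numbers were nearer, at 358.9 ± 2.5 in Ago12_KO and 328.8 ± 11.6 in Dicer_KO (SD, n = 2 each). The groups did not overlap in any of these measures. The 5 entries were picked by their share of Dicer_KO, so their excess there is a description and was not tested. For the entries detected the p was 0.333, and an exact two-sided permutation test of 2 against 2 libraries cannot give a lower one. No share of counts reported below can pass a threshold of 0.05 for the same reason.

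**Figure D1:**
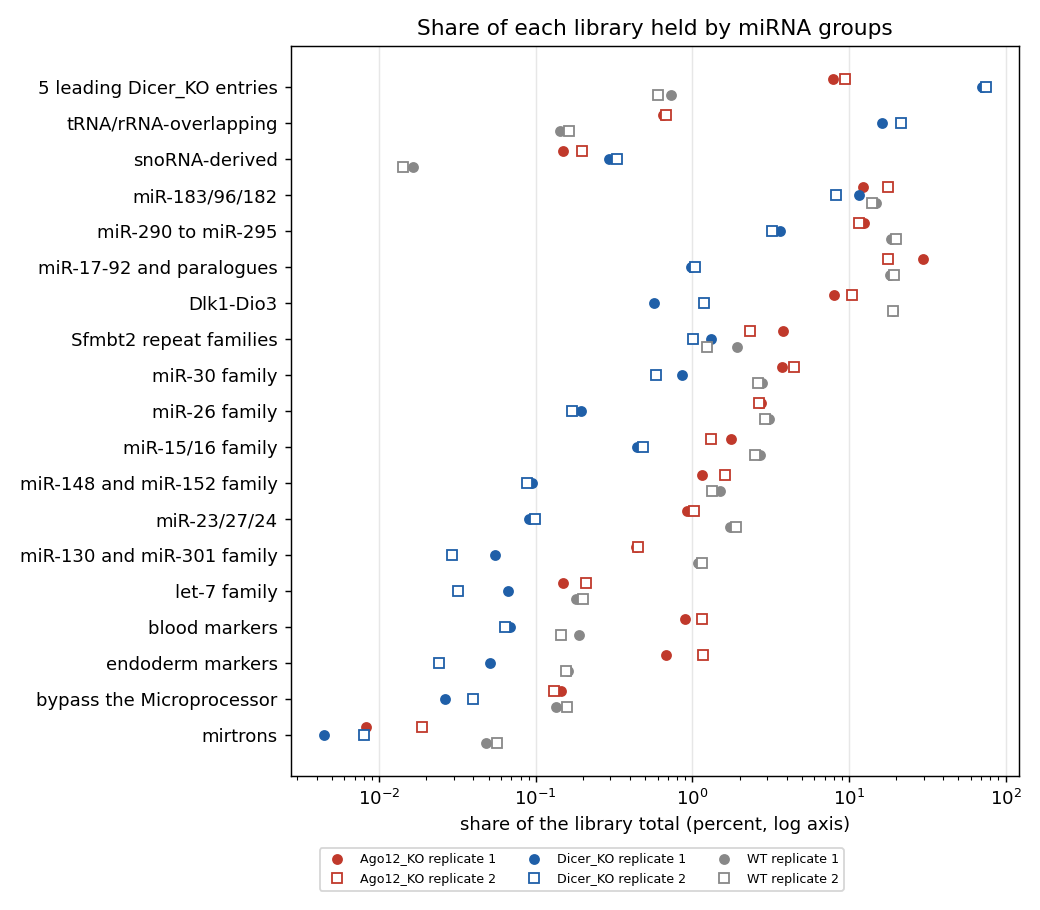
Share of the library total, in percent on a log axis, that each group of miRNAs held in the 2 Ago12_KO (red), 2 Dicer_KO (blue) and 2 WT (grey) libraries, with circles for replicate 1 and squares for replicate 2. The 5 leading Dicer_KO entries sit at 70.9% and 74.5% in Dicer_KO, and the miRNA clusters mostly sit to the left in Dicer_KO.

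Each entry was then tested between the genotypes with edgeR's quasi-likelihood test on the counts, with column totals as library sizes and a call at an adjusted p under 0.05. Of 481 entries tested, 185 were higher in Ago12_KO (38.5%) and 43 were lower (8.94%), and 253 were not called. Before adjustment, 256 entries had a p under 0.05. The 2 groups of libraries did not overlap for 185 of the 185 higher and 41 of the 43 lower calls, against 58.0% of all tested entries that lay apart with Ago12_KO higher and 12.9% with Ago12_KO lower. Many higher calls rested on few Dicer_KO counts: 47 of the 185 had none there and 48 had 1 to 3. The median log2 fold change of all tested entries was 2.38, and it was 1.36 over the 339 entries with a count in both groups, so a single entry is best read against that shift.

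The number of calls depended on what the counts were divided by, and the 5 leading entries take up most of a Dicer_KO library. With TMM factors 153 entries were higher and 51 lower. With the listed tRNA, rRNA and snoRNA entries and miR-3963 left out of the totals 107 were higher and 59 lower. With DESeq2 size factors in edgeR 70 were higher and 76 lower, and with the 5 leading entries left out of the totals 66 were higher and 80 lower. Without any scaling, where the difference in depth stays in the fold change, 352 were higher and 6 lower. The share of higher entries among the calls was 81.1% with column totals, 47.9% with size factors and 45.2% without the 5 leading entries, where the median log2 fold change was 0.65. Over all 481 entries the higher and lower shares were 14.6% and 15.8% with size factors, and 13.7% and 16.6% without the 5 leading entries. Of 53 called entries described below, 7 lost their call with size factors in edgeR, in DESeq2 and without the 5 leading entries: miR-182-5p, miR-16-5p, let-7c-5p, miR-877-5p, miR-484, miR-320-3p and miR-143-3p. Without scaling 17 of the 53 were lost, and all of these 17 were lower in Ago12_KO with column totals. The 5 scalings other than none all called 66 entries higher and 43 lower. Leaving out Dicer_KO replicate 1 brought the calls to 116 higher and 28 lower.

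**Figure D2:**
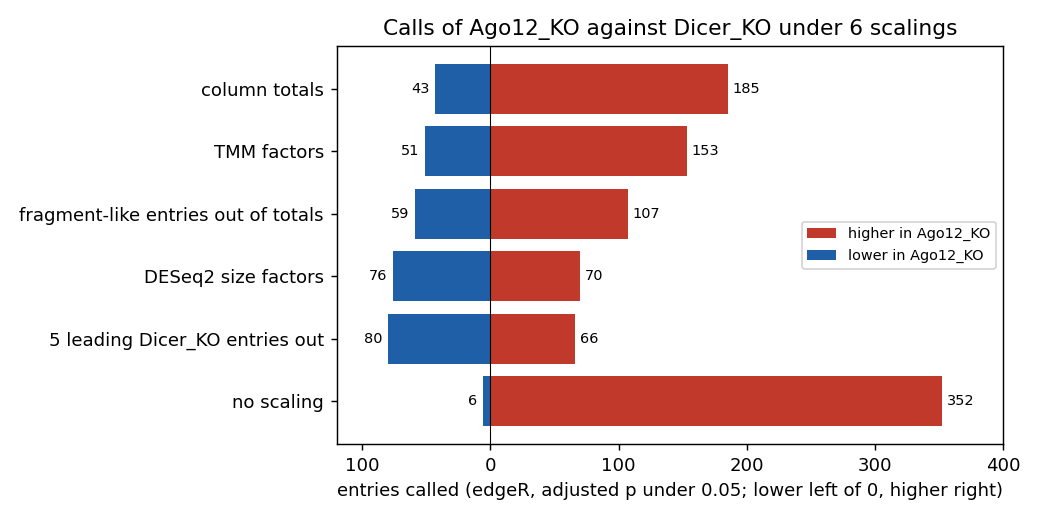
Number of entries called by edgeR in Ago12_KO against Dicer_KO, with entries lower in Ago12_KO to the left of 0 and entries higher to the right, under 6 ways of scaling the libraries. Higher calls range from 66 without the 5 leading Dicer_KO entries in the totals to 352 without scaling.

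By column totals, the level of an entry in WT went with the share of entries called higher, which was 38.5% over all entries, beside 8.94% lower. WT is no part of the contrast, but its libraries entered the filter and the shared estimate of the spread. Among 84 entries with 1000 CPM or more in WT, 64 were higher in Ago12_KO and 4 were lower, with a median log2 fold change of 3.02. The 4 lower ones were miR-183-5p, miR-21a-5p, miR-3963 and miR-5099. Among 153 entries with 100 to 1000 CPM in WT, 63 were higher and 17 lower, and among 244 entries under 100 CPM, 58 were higher and 22 lower. From the highest WT level to the lowest, these were 76.2%, 41.2% and 23.8% higher and 4.76%, 11.1% and 9.02% lower. In the same order, 2, 24 and 110 entries had no Dicer_KO count. With entries that had no count in a group set at their bound, the medians were 3.02, 1.22 and 0. The part of detection in the shallower Dicer_KO libraries was not tested, nor was this order under other scalings. Of 35 tested entries with no partner arm in the table, 4 were higher (11.4%) and 14 lower (40%). Arms were ranked by WT in hairpins with at least 100 WT counts. Of 238 more abundant arms, 116 were higher (48.7%) and 12 lower (5.04%). Of 134 less abundant arms, 60 were higher (44.8%) and 8 lower (5.97%). Of 74 entries with a partner arm but no rank, 5 were higher (6.76%) and 9 lower (12.2%). Lack of a partner was not separated from WT level.

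**Figure D3:**
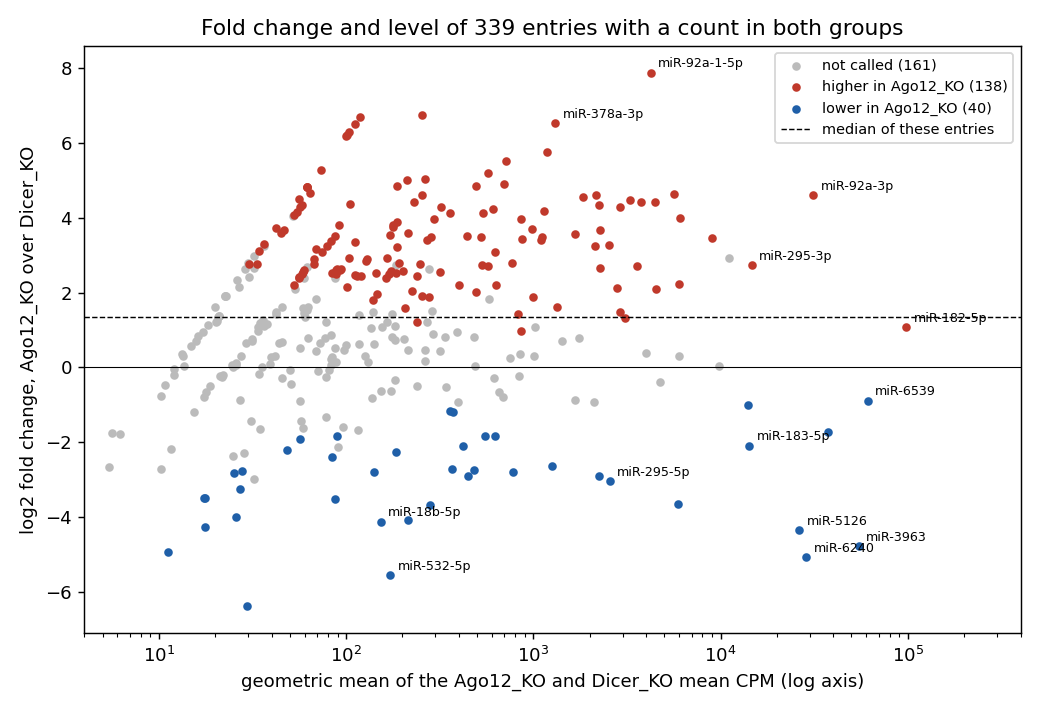
Log2 fold change of Ago12_KO over Dicer_KO against the geometric mean of both groups' mean CPM (log axis) for the 339 entries with a count in both groups. Of these, 138 were called higher in Ago12_KO (red), 40 lower (blue) and 161 were not called (grey), and the dashed line marks their median of 1.36.

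Among the abundant miRNAs, miR-92a-3p had the clearest difference. This guide strand of the miR-17-92 cluster stood at 173352 and 135467 CPM in Ago12_KO, against 6369 and 6271 CPM in Dicer_KO and 150940 and 161093 CPM in WT. Its log2 fold change was 4.61 (SE 0.24, edgeR adjusted p = 3.7e-07), and its Ago12_KO level lay beside that of WT. The miRNA miR-191-5p, abundant in many cell types, had 22636 and 33425 CPM in Ago12_KO, against 1349 and 907.2 CPM in Dicer_KO and 15401 and 15286 CPM in WT (log2 fold change 4.63, SE 0.34, edgeR adjusted p = 1.5e-06); it was chosen after its values were seen. The metabolic regulator miR-378a-3p, which lies in an intron of Ppargc1b, had 9530 and 15366 CPM in Ago12_KO, against 88.5 and 186.8 CPM in Dicer_KO and 3785 and 3133 CPM in WT. Its log2 fold change was 6.53 (SE 0.45, edgeR adjusted p = 1.2e-06). The groups did not overlap for any of the 3.

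The highest ratio among entries with more than 3 Dicer_KO counts belonged to a passenger strand. The arm that is discarded in WT, miR-92a-1-5p, had 36063 and 5915 counts in Ago12_KO, or 103240 and 25784 CPM, against 7 and 15 counts in Dicer_KO, or 154.8 and 400.3 CPM, and 1511 and 2453 CPM in WT. Both Ago12_KO libraries lay above both Dicer_KO libraries and above WT, but they differed between themselves, at 10.3% and 2.58% of counts. The log2 fold change was 7.88 (SE 0.84, edgeR adjusted p = 2.5e-05), and it was 6.57 without Ago12_KO replicate 1, 8.56 without Ago12_KO replicate 2 and 8.70 without Dicer_KO replicate 2.

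A pair of abundant Ago12_KO entries had no Dicer_KO count at all. From the repeat-rich Sfmbt2 cluster, miR-669a-3p had 1617 and 1243 counts in Ago12_KO, against 0 and 0 in Dicer_KO and a mean of 1365 CPM in WT. Every count of miR-669a-3p is a multiple of 11, and division by 11 leaves 147 and 113 in Ago12_KO. From the Dlk1-Dio3 cluster, miR-299a-3p had 1148 and 1169 counts in Ago12_KO, against 0 and 0 in Dicer_KO and a mean of 267.3 CPM in WT. Set against 3 counts over both Dicer_KO libraries, or 36.3 CPM, miR-299a-3p was at least 116-fold higher in Ago12_KO (edgeR adjusted p = 7.1e-06). With shared divisors taken out of all counts, miR-669a-3p was at least 12.7-fold higher (edgeR adjusted p = 0.00032, and 4.1e-06 on the deposited counts).

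The other entries with the highest ratios had 1 or 2 Dicer_KO counts, so their ratios are wide. The Dlk1-Dio3 miRNA miR-540-3p had 744 and 730 counts in Ago12_KO, against 1 and 1 in Dicer_KO, a ratio of shares of 105 (95% interval 29.1 to 870). The immune regulator miR-146b-5p had 337 and 362 counts in Ago12_KO, against 1 and 0 in Dicer_KO, a ratio of 99.9 (17.9 to 3951). The passenger arm miR-27b-5p had 532 and 167 counts in Ago12_KO, against 1 and 0 in Dicer_KO, with the same ratio and interval. Likewise with 1 and 0 counts in Dicer_KO, miR-673-3p had 213 and 306 counts in Ago12_KO, the passenger arm miR-26b-3p had 249 and 256, and miR-210-3p, known for its induction by low oxygen, had 251 and 246. All 6 were called in edgeR, with adjusted p-values of 6.7e-06 for miR-540-3p, 1.8e-05 for miR-146b-5p, 0.00044 for miR-27b-5p, 0.00028 for miR-673-3p, 5.3e-05 for miR-26b-3p and 5.9e-05 for miR-210-3p. For the 5 with 1 count, that count lay in Dicer_KO replicate 1, so without that library only a bound is left.

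The entries that were lower in Ago12_KO were led by the small RNAs that dominated Dicer_KO. Named as a miRNA but with no partner arm in the table, miR-3963 had 9043 and 11892 CPM in Ago12_KO, against 323117 and 253816 CPM in Dicer_KO and 3211 and 1920 CPM in WT (log2 fold change -4.78, SE 0.38, edgeR adjusted p = 2.5e-06). An entry reported to overlap ribosomal RNA, miR-6240, had 4784 and 5113 CPM in Ago12_KO, against 146942 and 187720 CPM in Dicer_KO and 748.6 and 907.0 CPM in WT (log2 fold change -5.08, SE 0.29, edgeR adjusted p = 5.5e-07). The sequence of miR-5126 is made of G and C alone, and it had 6083 and 5567 CPM in Ago12_KO, against 87258 and 151510 CPM in Dicer_KO and 1194 and 73.1 CPM in WT (log2 fold change -4.36, SE 1.01, edgeR adjusted p = 0.0045). For each of these 3, the Ago12_KO libraries lay below both Dicer_KO libraries and above both WT libraries.

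The remaining pair of the 5 leading entries differed less. For miR-5099, the level was 21213 and 20148 CPM in Ago12_KO, against 66251 and 70472 CPM in Dicer_KO and 1613 and 2516 CPM in WT (log2 fold change -1.72, SE 0.26, edgeR adjusted p = 0.00026). The share of miR-6539 was 38029 and 51577 CPM in Ago12_KO, against 84981 and 81466 CPM in Dicer_KO and 556.9 and 581.8 CPM in WT (log2 fold change -0.89, SE 0.25, edgeR adjusted p = 0.012). That call was lost without Ago12_KO replicate 1, where the log2 fold change was -0.69 (edgeR adjusted p = 0.080). Without scaling both pointed the other way, at 1.09 for miR-5099 and 1.87 for miR-6539. Across the 5, miR-6539 was the leading one in Ago12_KO, whereas miR-3963 led in Dicer_KO.

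Some ordinary miRNAs were also lower in Ago12_KO than in Dicer_KO. The arm miR-532-5p, from an X-linked cluster in the gene Clcn5, had 15 and 1 counts in Ago12_KO, or 42.9 and 4.36 CPM, against 57 and 47 counts in Dicer_KO, or 1260 and 1254 CPM, and a mean of 260.0 CPM in WT. Its log2 fold change was -5.56 (SE 0.57, edgeR adjusted p = 2.1e-05), and it was -8.11 without Ago12_KO replicate 1 and -4.87 without Ago12_KO replicate 2. A member of the X-linked miR-106a-363 cluster, miR-18b-5p, had 34.4 and 39.2 CPM in Ago12_KO, against 663.4 and 613.7 CPM in Dicer_KO and a mean of 683.0 CPM in WT (log2 fold change -4.12, SE 0.41, edgeR adjusted p = 4.6e-05). Encoded among the Hox genes, miR-10a-5p had 17.2 and 91.5 CPM in Ago12_KO, against 995.1 and 693.8 CPM in Dicer_KO and a mean of 145.7 CPM in WT. Its log2 fold change was -4.08 (SE 0.58, edgeR adjusted p = 0.00017), and it was -3.21 without Ago12_KO replicate 1 and -5.61 without Ago12_KO replicate 2. The groups did not overlap for any of the 3, and the order of the levels across genotypes differed between them.

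Other lower entries had fewer counts or smaller changes. The intronic entry miR-7003-3p had 2 and 0 counts in Ago12_KO, against 12 and 13 in Dicer_KO, a ratio of shares of 0.0114 (95% interval 0.00131 to 0.0458, edgeR adjusted p = 0.00010). Of the 10 lowest ratios, miR-6943-3p, miR-32-5p and miR-3084-3p rested on 5, 9 and 6 Dicer_KO counts, and each lost its call when a Dicer_KO library was left out, with adjusted p-values of 0.31, 0.25 and 0.24. Every count of miR-3084-3p is a multiple of 2, and its call was also lost with shared divisors taken out (edgeR adjusted p = 0.060). Both arms of miR-135b were lower, miR-135b-5p at 223.3 and 148.2 CPM in Ago12_KO, against 1393 and 1094 CPM in Dicer_KO, and miR-135b-3p at 349.3 and 239.7 CPM in Ago12_KO, against 2366 and 1734 CPM in Dicer_KO. Their log2 fold changes were -2.73 (SE 0.41, edgeR adjusted p = 0.00026) and -2.79 (SE 0.34, edgeR adjusted p = 6.1e-05), and they were chosen after their values were seen. The growth-linked miR-21a-5p had 8230 and 11512 CPM in Ago12_KO, against 25143 and 14329 CPM in Dicer_KO (log2 fold change -1.0, SE 0.37, edgeR adjusted p = 0.042). That call was lost in 7 of the 10 fits that left out a library, and the log2 fold change was -0.54 without Dicer_KO replicate 1. From the snoRNA gene region of Snord33 within Rpl13a, miR-5121 had 624.1 and 1011 CPM in Ago12_KO, against 5926 and 6351 CPM in Dicer_KO (log2 fold change -2.91, SE 0.38, edgeR adjusted p = 8.4e-05); it too was chosen after its values were seen.

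**Figure D4:**
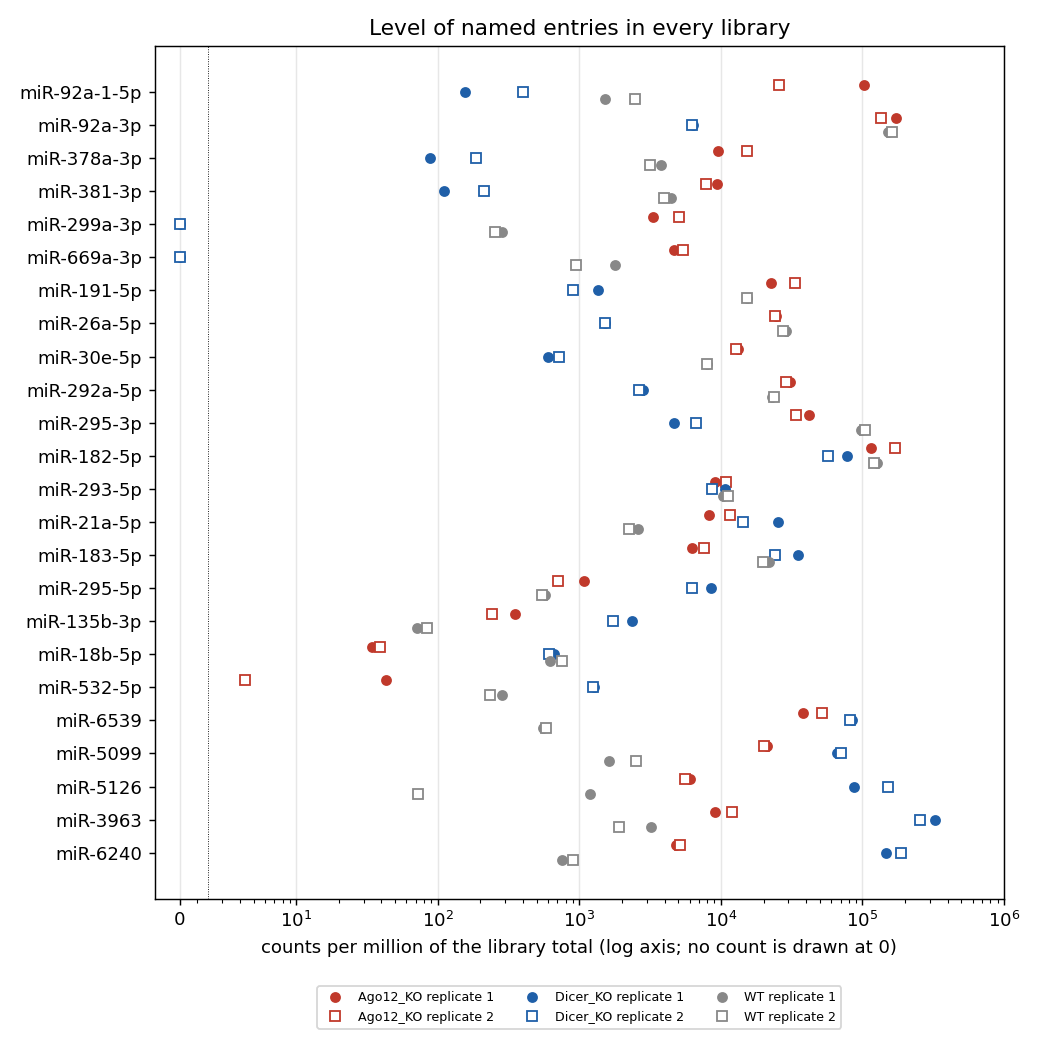
Level of named entries in each of the 2 Ago12_KO (red), 2 Dicer_KO (blue) and 2 WT (grey) libraries, in CPM on a log axis, with circles for replicate 1, squares for replicate 2 and libraries without a count drawn at 0. From miR-92a-1-5p down to miR-182-5p the Ago12_KO points lie to the right of the Dicer_KO points, and from miR-21a-5p down to miR-6240 they lie to the left.

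The miR-290 to miR-295 cluster, the main miRNA cluster of mouse embryonic stem cells, held 12.4% and 11.5% of counts in Ago12_KO, against 3.62% and 3.24% in Dicer_KO and 18.5% and 19.8% in WT. Of its 14 tested entries, 7 were higher in Ago12_KO (beside 38.5% of all entries), 1 was lower (7.14%, beside 8.94%) and 6 were not called, with a median log2 fold change of 1.05 beside 2.38 for all entries. With the 5 leading entries left out of the totals the split was 4 higher and 6 lower, and the median was -0.69. The cluster's shares of those totals lay close together in Ago12_KO and Dicer_KO. The guide miR-295-3p had 42026 and 33752 CPM in Ago12_KO, against 4644 and 6698 CPM in Dicer_KO and 98301 and 104755 CPM in WT (log2 fold change 2.74, SE 0.25, edgeR adjusted p = 8.5e-06). Its partner arm miR-295-5p had 1076 and 701.8 CPM in Ago12_KO, against 8447 and 6244 CPM in Dicer_KO and 570.0 and 546.3 CPM in WT (log2 fold change -3.04, SE 0.36, edgeR adjusted p = 4.7e-05). The arms of this 1 hairpin moved in opposite directions. Within the same cluster, miR-292a-5p had 30763 and 29005 CPM in Ago12_KO, against 2808 and 2642 CPM in Dicer_KO (log2 fold change 3.45, SE 0.25, edgeR adjusted p = 1.3e-06). By contrast, miR-293-5p had 9049 and 10802 CPM in Ago12_KO, against 10681 and 8672 CPM in Dicer_KO, and it was not called (log2 fold change 0.04, SE 0.29, edgeR adjusted p = 0.98).

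The other embryonic cluster, miR-302 and miR-367, was scarce in both genotypes, at 0.0253% ± 0.0068 of counts in Ago12_KO, 0.00976% ± 0.00129 in Dicer_KO and 0.00527% ± 0.00017 in WT (SD, n = 2 each). Of its 2 tested entries, 1 was higher in Ago12_KO, and no entry of the cluster was called without either Dicer_KO library or without the 5 leading entries in the totals.

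The miR-17-92 cluster and its paralogues miR-106b-25 and miR-106a-363, known for driving cell proliferation, held 29.5% and 17.7% of counts in Ago12_KO, against 0.986% and 1.04% in Dicer_KO and 18.2% and 19.5% in WT. Of 26 tested entries, 14 were higher in Ago12_KO (53.8%, beside 38.5% of all entries) and 3 were lower (11.5%, beside 8.94%), with a median log2 fold change of 2.21. With the 5 leading entries out of the totals, 7 were higher (26.9%, beside 13.7%) and 4 lower (15.4%, beside 16.6%). Beside both miR-92a arms, miR-25-3p, which shares the seed AUUGCAC with miR-92a-3p, had 8843 and 7437 CPM in Ago12_KO, against 420.1 and 853.9 CPM in Dicer_KO and 10235 and 10048 CPM in WT (log2 fold change 3.69, SE 0.37, edgeR adjusted p = 1.8e-05). Without Dicer_KO replicate 2 its log2 fold change was 4.27. The 3 lower entries were miR-18b-5p, miR-106b-5p and miR-93-3p. Of these, miR-106b-5p had 94.5 and 74.1 CPM in Ago12_KO, against 464.4 and 346.9 CPM in Dicer_KO and 639.6 and 690.4 CPM in WT (log2 fold change -2.26, SE 0.41, edgeR adjusted p = 0.0011). Neighbours on 1 primary transcript, miR-25 and miR-106b both lie in Mcm7, yet the one guide was higher in Ago12_KO and the other lower, except without scaling, where miR-106b-5p was not called at a log2 fold change of 0.55.

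The cluster of miR-182, miR-183 and miR-96, best known from sensory organs, was the one abundant cluster that stayed large in Dicer_KO. It held 12.4% and 17.8% of counts in Ago12_KO, against 11.6% and 8.27% in Dicer_KO and 14.8% and 14.1% in WT. Of its 6 tested entries, 3 were higher in Ago12_KO (50%, beside 38.5% of all entries) and 2 were lower (33.3%, beside 8.94%). With size factors or without the 5 leading entries, however, none was higher and 3 were lower (50%, beside 15.8% and 16.6%). The entry miR-182-5p had 115347 and 169123 CPM in Ago12_KO, against 78258 and 57023 CPM in Dicer_KO and 125617 and 120284 CPM in WT (log2 fold change 1.07, SE 0.24, edgeR adjusted p = 0.0034). Its neighbour miR-183-5p had 6227 and 7554 CPM in Ago12_KO, against 34784 and 23935 CPM in Dicer_KO and 21716 and 19682 CPM in WT (log2 fold change -2.09, SE 0.28, edgeR adjusted p = 9.1e-05). By column totals the libraries lay apart for both, in opposite directions. The direction of miR-182-5p rested on the totals, since its log2 fold change was -0.66 without the 5 leading entries (edgeR adjusted p = 0.055), and that of miR-183-5p turned to 0.66 without any scaling.

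The imprinted Dlk1-Dio3 cluster, whose miRNAs are made from the maternal chromosome, held 8.08% and 10.5% of counts in Ago12_KO, against 0.568% and 1.18% in Dicer_KO and 19.07% and 19.03% in WT. Of 63 tested entries 22 were higher in Ago12_KO (34.9%, below the 38.5% of all entries) and none was lower, with a median log2 fold change of 2.78 (1.23 with the entries that had no count in a group set at their bound). With the 5 leading entries out of the totals the calls were 5 higher (7.94%, beside 13.7% of all entries) and 1 lower, and without Dicer_KO replicate 1 they were 8 higher and 0 lower. The entry miR-381-3p had 9419 and 7838 CPM in Ago12_KO, against 110.6 and 213.5 CPM in Dicer_KO and 4438 and 3936 CPM in WT (log2 fold change 5.76, SE 0.78, edgeR adjusted p = 0.00011). The most abundant member, miR-127-3p, lies antisense to the imprinted gene Rtl1 and had 30374 and 30683 CPM in Ago12_KO, against 2897 and 5070 CPM in Dicer_KO and 81585 and 79577 CPM in WT. It was not called although its groups lay apart (log2 fold change 2.94, SE 1.47, edgeR adjusted p = 0.13). The fit shares its spread with all groups, and with Ago12_KO and Dicer_KO alone the adjusted p for miR-127-3p was 0.00042, while without either Drosha_KO library it was 2.6e-08 or less.

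The repeat families of Sfmbt2, miR-297, miR-466, miR-467 and miR-669, are encoded in many near-identical copies in an intron of that gene, so counts of single entries are uncertain. They held 3.77% and 2.35% of counts in Ago12_KO, against 1.32% and 1.01% in Dicer_KO and 1.92% and 1.24% in WT. Of 44 tested entries 21 were higher in Ago12_KO (47.7%, beside 38.5% of all entries) and 1 was lower (2.27%, beside 8.94%), with a median log2 fold change of 2.94 (1.14 with bounds). With the 5 leading entries out of the totals 7 were higher (15.9%, beside 13.7%) and 5 lower (11.4%, beside 16.6%), and 9 were higher without either Dicer_KO library.

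Families found in most cell types were mainly higher in Ago12_KO, in numbers above the 38.5% of all entries. The miR-30 family, which guards differentiation states, held 4.11% ± 0.50 of counts in Ago12_KO and 0.723% ± 0.197 in Dicer_KO (SD, n = 2 each), and 8 of its 11 tested entries were higher and none lower. Its leading member miR-30e-5p had 13114 and 12763 CPM in Ago12_KO, against 597.1 and 720.5 CPM in Dicer_KO and 7959 and 7966 CPM in WT (log2 fold change 4.30, SE 0.33, edgeR adjusted p = 2.5e-06). The miR-26 family, which targets the chromatin enzyme Ezh2, held 2.71% ± 0.05 in Ago12_KO and 0.183% ± 0.017 in Dicer_KO (SD, n = 2 each), and 3 of 4 tested entries were higher. Its main guide miR-26a-5p had 24408 and 24001 CPM in Ago12_KO, against 1526 and 1521 CPM in Dicer_KO and 29011 and 27288 CPM in WT (log2 fold change 3.99, SE 0.26, edgeR adjusted p = 9.1e-07). All 5 tested entries of the miR-148 and miR-152 family, which targets DNA methyltransferases, were higher, but 2 of them had no Dicer_KO count. The family's median log2 fold change was 4.33, or 2.79 with bounds. Among the 5, miR-148a-3p had 8680 and 11477 CPM in Ago12_KO, against 442.3 and 560.4 CPM in Dicer_KO (log2 fold change 4.33, SE 0.32, edgeR adjusted p = 1.7e-06). For these 3 families the counts of higher entries without the 5 leading entries in the totals were 4 of 11, 3 of 4 and 2 of 5, and 2 entries of the miR-30 family were then lower.

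Smaller families stood above and below the 38.5% of all entries. Of the miR-23/27/24 clusters 7 of 9 tested entries were higher in Ago12_KO and none lower, and miR-27b-3p had 5926 and 7197 CPM in Ago12_KO, against 663.4 and 720.5 CPM in Dicer_KO (log2 fold change 3.25, SE 0.30, edgeR adjusted p = 8.5e-06). Of the miR-130 and miR-301 family 4 of 6 were higher, and miR-130b-3p had 615 and 319 counts in Ago12_KO, against 4 and 0 in Dicer_KO (log2 fold change 5.04, SE 0.65, edgeR adjusted p = 8.0e-05; 4.15 without Dicer_KO replicate 2). Without the 5 leading entries 4 of 9 and 2 of 6 were higher, and 1 of the second family was lower. The miR-15/16 family, which restrains the cell cycle, held 1.77% and 1.32% in Ago12_KO, against 0.442% and 0.483% in Dicer_KO, with 6 of 12 entries higher and 2 lower, but 1 higher and 3 lower without the 5 leading entries. Its main guide miR-16-5p had 14975 and 10967 CPM in Ago12_KO, against 2609 and 2935 CPM in Dicer_KO (log2 fold change 2.23, SE 0.27, edgeR adjusted p = 5.8e-05). That call was lost with size factors (log2 fold change 0.60, edgeR adjusted p = 0.18), without the 5 leading entries (0.47, 0.24) and in DESeq2 (0.096). By contrast, miR-15b-5p had 263.4 and 231.0 CPM in Ago12_KO, against 597.1 and 533.7 CPM in Dicer_KO (log2 fold change -1.19, SE 0.34, edgeR adjusted p = 0.018). The call of miR-15b-5p was lost without either Dicer_KO library, at log2 fold changes of -1.11 and -1.27, and 4 family members were higher without Dicer_KO replicate 1 and 3 without Dicer_KO replicate 2. The median of the miR-15/16 family was 1.502 with column totals and -0.23 without the 5 leading entries. The let-7 family, held down by Lin28 in stem cells, was scarce, at 0.149% and 0.208% in Ago12_KO, against 0.0663% and 0.0320% in Dicer_KO, with 3 of 10 entries higher (30.0%). For let-7c-5p the counts were 62 and 63 in Ago12_KO, against 1 and 2 in Dicer_KO, a ratio of shares of 5.95 (95% interval 1.99 to 29.3, edgeR adjusted p = 0.0073), and the call was lost without Dicer_KO replicate 1 (0.092). With the 5 leading entries out of the totals no let-7 entry was called.

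Hairpins that take other routes were few and mostly shallow. Conserved mirtrons, spliced introns that skip the Microprocessor but need Dicer, held 72 counts in Ago12_KO and 5 in Dicer_KO in all, and 1 of 6 tested entries was higher (16.7%, beside 38.5% of all entries). That entry, miR-877-5p, had 27 and 35 counts in Ago12_KO, against 1 and 1 in Dicer_KO, a ratio of shares of 4.43 (95% interval 1.18 to 37.4, edgeR adjusted p = 0.025), and the call was lost without Ago12_KO replicate 2 and without either Dicer_KO library (0.12, 0.17 and 0.095). Of 4 tested entries from hairpins known to bypass the Microprocessor, 2 were higher in Ago12_KO (50%, beside 38.5% of all entries), but with size factors or without the 5 leading entries none was higher and 1 was lower (25%, beside 15.8% and 16.6%). One of them, miR-484, had 397.9 and 601.6 CPM in Ago12_KO, against 110.6 and 53.4 CPM in Dicer_KO (log2 fold change 2.57, SE 0.43, edgeR adjusted p = 0.00059; 0.17 with size factors and 0.26 without the 5 leading entries). The other, miR-320-3p, had 1036 and 666.9 CPM in Ago12_KO, against 110.6 and 266.8 CPM in Dicer_KO (log2 fold change 2.21, SE 0.49, edgeR adjusted p = 0.0037). It lost its call with size factors and without the 5 leading entries (edgeR adjusted p = 0.50 and 0.58), and without Dicer_KO replicate 1 (log2 fold change 1.68, edgeR adjusted p = 0.054); without Dicer_KO replicate 2 it was 2.95. Of miR-451, the miRNA cut by Ago2 in place of Dicer, neither genotype had a count, which allows up to 5.18 CPM in Ago12_KO and 36.3 CPM in Dicer_KO. In WT miR-451 held only 0.00017% and 0.00026% of counts, below those limits, so its absence shows no difference from WT.

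Entries that overlap other non-coding RNAs went the other way or were not called. Entries reported to overlap tRNA or rRNA held 0.653% and 0.680% of counts in Ago12_KO, against 16.2% and 21.5% in Dicer_KO and 0.143% and 0.162% in WT, and 3 of 4 were lower in Ago12_KO (75%, beside 8.94% of all entries). Beside miR-6240, miR-6236 had 1709 and 1643 CPM in Ago12_KO, against 14484 and 27431 CPM in Dicer_KO (log2 fold change -3.64, SE 0.43, edgeR adjusted p = 4.7e-05). In the same list, miR-1983 had 31.5 and 26.2 CPM in Ago12_KO, from 11 and 6 counts, against 88.5 and 133 CPM in Dicer_KO, from 4 and 5 counts (log2 fold change -1.90, SE 0.45, edgeR adjusted p = 0.011; 0.17 without Dicer_KO replicate 2). The 6 listed entries from snoRNAs held 0.150% and 0.196% in Ago12_KO, against 0.292% and 0.328% in Dicer_KO, and none was called. Outside that list, miR-5121, miR-3068-3p, miR-3084-3p and miR-1843a-3p also overlap exons of annotated snoRNAs or the related scaRNAs. Each was called lower in Ago12_KO (edgeR adjusted p = 8.4e-05, 0.0011, 0.033 and 0.037), miR-3084-3p and miR-1843a-3p at means of only 70.9 and 33.2 CPM in Dicer_KO. The counts of miR-1843a-3p lay in Dicer_KO replicate 1 alone, so its groups overlapped. The call of miR-3084-3p was lost with shared divisors taken out of all counts (log2 fold change -4.20, edgeR adjusted p = 0.060). Neither arm of miR-677, from a snoRNA exon too, was called lower. The most abundant of the 6 listed, miR-3535, had 1360 and 1726 CPM in Ago12_KO, against 2609 and 3202 CPM in Dicer_KO (log2 fold change -0.91, SE 0.35, edgeR adjusted p = 0.051). It was called lower without either Drosha_KO library (0.0098 and 0.0084) and without the 5 leading entries in the totals (0.00025).

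Markers of other cell types were read as a check of the label embryonic stem cells. Blood markers held 0.894% and 1.16% of counts in Ago12_KO, against 0.0686% and 0.0640% in Dicer_KO and 0.189% and 0.146% in WT. Of 5 tested entries 4 were higher (80%, beside 38.5% of all entries), and 3 without the 5 leading entries in the totals (60%, beside 13.7%). The blood miRNA miR-142a-5p had 5250 and 4647 CPM in Ago12_KO, against 154.8 and 53.4 CPM in Dicer_KO and 579.3 and 250.0 CPM in WT (log2 fold change 5.52, SE 0.63, edgeR adjusted p = 4.6e-05; 6.53 without Dicer_KO replicate 1). Markers of endoderm, liver and gut held 0.683% and 1.18% in Ago12_KO, against 0.0509% and 0.0240% in Dicer_KO and 0.161% and 0.156% in WT. Of these, 3 of 3 tested entries were higher (beside 38.5% of all entries), 2 of which had no Dicer_KO count. Of these 3, 2 were higher without either Dicer_KO library, and 1 with size factors or without the 5 leading entries. The gut miRNA miR-192-5p had 6564 and 11451 CPM in Ago12_KO, against 508.6 and 240.2 CPM in Dicer_KO (log2 fold change 4.57, SE 0.48, edgeR adjusted p = 2.2e-05; 5.23 without Dicer_KO replicate 1).

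Neural markers held 0.184% and 0.164% in Ago12_KO, against 0.0686% and 0.0374% in Dicer_KO, with 5 of 7 higher, 2 without either Dicer_KO library and with the 5 leading entries out of the totals none was higher and 1 lower. Fibroblast and feeder markers held 0.150% and 0.311% in Ago12_KO, against 0.155% and 0.144% in Dicer_KO, so that the groups overlapped, with miR-143-3p higher and miR-10a-5p lower. The counts of miR-143-3p were 319 and 461 in Ago12_KO, against 6 and 12 in Dicer_KO (log2 fold change 2.72, SE 0.53, edgeR adjusted p = 0.0017), with a log2 fold change of 2.04 without Ago12_KO replicate 2 and 3.46 without Dicer_KO replicate 2. Its call was lost with size factors (1.04, edgeR adjusted p = 0.17), without the 5 leading entries (0.96, 0.24) and in DESeq2 (0.16). The one muscle marker with a count, miR-208a-3p, had 0 and 0 counts in Ago12_KO, against 6 and 1 in Dicer_KO, and was at least 15.4-fold lower (edgeR adjusted p = 0.0027; 0.10 without Dicer_KO replicate 1). Beside these marker counts, 38.5% of all tested entries were higher and 8.94% lower, or 13.7% and 16.6% without the 5 leading entries in the totals. In bulk libraries fewer cells of a type and less RNA per cell cannot be told apart, and the part of other cell types in any of the results was not tested.

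The balance of the arms within a hairpin needs no library total, but where an arm has few counts the added 0.5 lets depth enter. It was compared with limma on log2((5p + 0.5)/(3p + 0.5)), with numbered copies such as miR-92a-1 and miR-92a-2 summed per arm as 1 hairpin. The test covered the 39 hairpins whose arms summed to at least 20 counts in each of the 4 libraries. Of these, 23 differed (59.0%), 11 with more 5p and 12 with more 3p in Ago12_KO, and 24 had a p under 0.05 before adjustment. In 5 of the 23, miR-669a, miR-669p, miR-22, miR-27b and miR-541, an arm had under 3 counts in a group, so that the value rests on the added 0.5. For miR-669p the 3p arm had no count in any of the 4 libraries and the 5p share was 100% in both groups, so its call shows no difference in balance. With each arm required to have 3 counts in each group, 18 of 31 hairpins were called. Without Dicer_KO replicate 1 the calls were 14 of 42.

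All 6 tested hairpins between miR-290a and miR-295 were among the 23. In miR-295 the 5p arm took 2.50% and 2.04% of the arm counts in Ago12_KO, against 64.5% and 48.2% in Dicer_KO and a mean of 0.548% in WT (log2 difference -5.81, SE 0.44, limma adjusted p = 2.4e-05). In miR-294 it took 9.37% and 7.10% in Ago12_KO, against 65.3% and 37.0% in Dicer_KO and 2.66% in WT (log2 difference -3.56, SE 0.53, limma adjusted p = 0.0011). In both hairpins the AAGUGCU arm was in excess in Ago12_KO as in WT, although the 5p share lay above that of WT. In Dicer_KO the arms were nearer parity, with 1 library on either side of it. In miR-293 it took 81.8% and 80.0% in Ago12_KO, against 93.4% and 91.8% in Dicer_KO and 51.5% in WT (log2 difference -1.55, SE 0.34, limma adjusted p = 0.0072). Also toward 3p in Ago12_KO were miR-291a, with a mean 5p share of 71.7% against 86.7% in Dicer_KO, and miR-292a, with 63.0% against 77.1%. The exception was miR-290a, with a 5p share of 16.3% and 26.7% in Ago12_KO, against 9.15% and 8.70% in Dicer_KO and 75.2% in WT (log2 difference 1.37, SE 0.44, limma adjusted p = 0.028). The calls of miR-290a, miR-291a and miR-292a were lost without Ago12_KO replicate 2 (limma adjusted p = 0.19, 0.086 and 0.13), and each was lost without at least 1 Dicer_KO library too.

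Other hairpins were closer to WT in Ago12_KO in some cases and farther from it in others. The 5p share of miR-93 was 98.1% in both Ago12_KO libraries, against 73.5% and 72.0% in Dicer_KO and 97.0% in WT (log2 difference 4.26, SE 0.59, limma adjusted p = 0.0011). That of miR-16 was 98.1% and 97.1% in Ago12_KO, against 83.7% and 82.7% in Dicer_KO and 99.8% in WT (log2 difference 3.10, SE 0.39, limma adjusted p = 0.00077). In miR-181c, however, it was 55.7% and 56.0% in Ago12_KO, against 88.6% and 87.0% in Dicer_KO and 84.6% in WT (log2 difference -2.34, SE 0.34, limma adjusted p = 0.0011). Likewise miR-205 had 76.8% and 74.3% in Ago12_KO, against 95.98% and 93.7% in Dicer_KO and 95.8% in WT (log2 difference -2.55, SE 0.59, limma adjusted p = 0.0082), a call lost without Dicer_KO replicate 1 (limma adjusted p = 0.056). In miR-92a the 5p share was 26.7% ± 15.1 in Ago12_KO, with 37.4% in replicate 1, and 4.19% ± 2.56 in Dicer_KO (SD, n = 2 each), beside 1.25% in WT (log2 difference 3.03, SE 0.73, limma adjusted p = 0.0093). That call was lost without Ago12_KO replicate 1 (log2 difference 2.21, limma adjusted p = 0.057) and without Dicer_KO replicate 1 (2.36, 0.071).

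**Figure D5:**
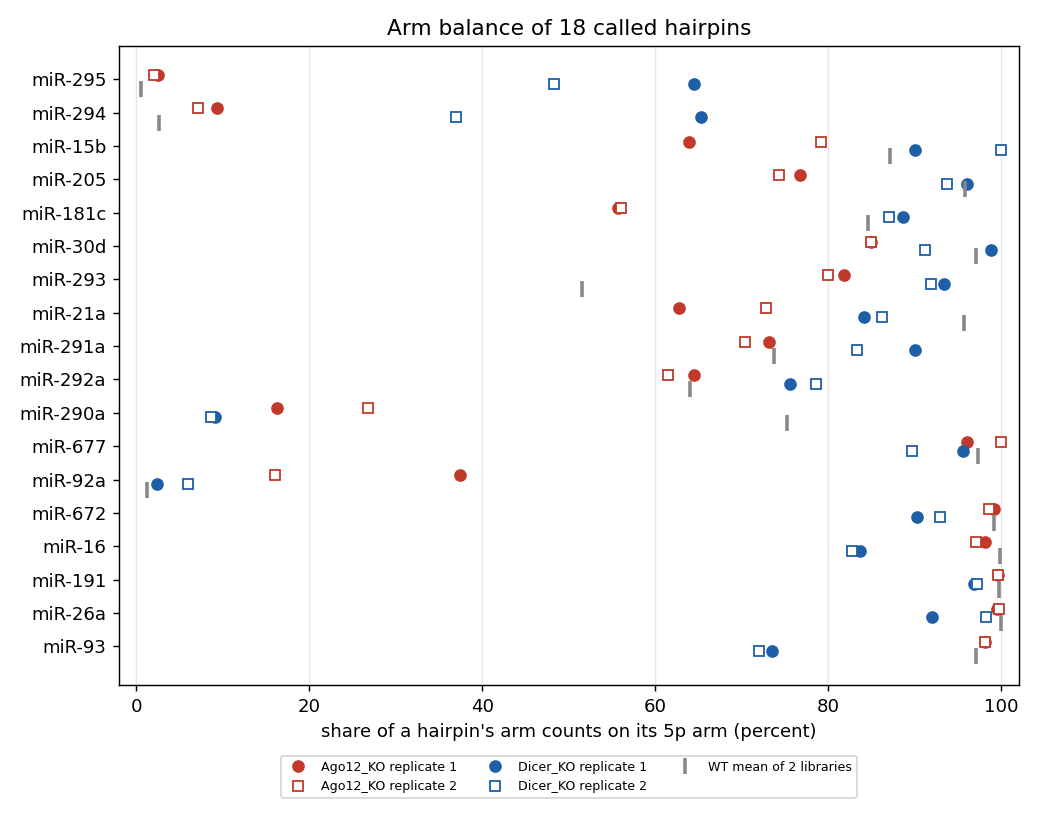
Percentage of a hairpin's arm counts on its 5p arm in the 2 Ago12_KO (red) and 2 Dicer_KO (blue) libraries, with circles for replicate 1, squares for replicate 2 and a grey bar for the WT mean, for the 18 called hairpins with at least 3 counts on each arm in each group. Hairpins run from the largest shift toward 3p in Ago12_KO (miR-295) to the largest shift toward 5p (miR-93).

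Summed over the 776 hairpins with both arms in the table, the 5p arms held 52.2% and 55.0% of arm counts in Ago12_KO, against 82.5% and 77.2% in Dicer_KO and 42.3% and 40.8% in WT. Without miR-182 and miR-183 they held 44.9% and 44.0% in Ago12_KO, against 70.2% and 63.7% in Dicer_KO and 32.3% and 31.1% in WT. In the miR-290 to miR-295 cluster alone they held 41.8% and 44.1% in Ago12_KO, against 72.4% and 64.4% in Dicer_KO and 25.97% and 25.4% in WT. In all 3 sums the Dicer_KO libraries lay highest and WT lowest (exact two-sided permutation p = 0.333 between the knockouts, the smallest possible).

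Ranking arms by WT instead of by position gave another result. The arm that is less abundant in WT held 19.8% and 11.5% of counts in Ago12_KO, against 12.8% and 12.7% in Dicer_KO and 5.11% and 5.42% in WT, over 255 hairpins with at least 100 WT counts. The knockouts overlapped in this share. Without miR-92a it was 12.1% and 10.5% in Ago12_KO, against 13.05% and 12.9% in Dicer_KO and 5.86% and 6.19% in WT. Both knockouts lay above WT either way.

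By seed, the family of miR-92a-3p, miR-92b-3p, miR-25-3p and miR-363-3p (seed AUUGCAC) held 19.2% and 15.5% of counts in Ago12_KO, against 0.739% and 0.787% in Dicer_KO and 17.2% and 18.3% in WT. The AAGUGCU seed of miR-295-3p, miR-294-3p, miR-291a-3p and miR-302d-3p held 5.21% and 4.28% in Ago12_KO, against 0.548% and 0.833% in Dicer_KO and 11.4% and 12.2% in WT. The CUCAAAC seed of the cluster's 5p arms miR-292a-5p, miR-293-5p and miR-290a-5p held 4.01% in both Ago12_KO libraries, against 1.38% and 1.15% in Dicer_KO and 3.45% and 3.60% in WT. By column totals, no library overlapped between the knockouts in these 3 families. With the 5 leading Dicer_KO entries out of the totals, however, the CUCAAAC share was slightly lower in Ago12_KO. The other families stayed higher there.

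The first base of the guide is one of the features that Argonaute pockets are known to read. Over the entries matched to a RefSeq sequence, A was the first base of 29.7% and 22.3% of counts in Ago12_KO, against 5.84% and 5.67% in Dicer_KO and 27.6% and 28.3% in WT. G was the first base of 2.08% and 2.36% in Ago12_KO, against 13.03% and 22.2% in Dicer_KO and 2.56% and 2.54% in WT. Without the 5 leading Dicer_KO entries the gap in A was smaller, at means of 26.6% in Ago12_KO and 18.9% in Dicer_KO. The mean share of G was then 1.57% in Ago12_KO and 10.8% in Dicer_KO, and the groups did not overlap for either base. Among these 5, miR-5126 starts with G and alone held 8.73% and 15.2% of the Dicer_KO totals. Leaving out the tRNA, rRNA and snoRNA entries and miR-3963 instead gave mean G shares of 2.07% in Ago12_KO and 35.8% in Dicer_KO. U was the first base of 58.1% and 63.0% in Ago12_KO, against 61.3% and 47.9% in Dicer_KO, so that the groups overlapped, but without the tRNA, rRNA and snoRNA entries and miR-3963 it was 58.1% and 63.0% in Ago12_KO, against 53.4% and 39.3% in Dicer_KO, with no overlap. C was the first base of 10.1% and 12.3% in Ago12_KO, against 19.8% and 24.2% in Dicer_KO, but without the same entries it was 9.73% and 12.01% in Ago12_KO, against 4.82% and 3.58% in Dicer_KO. Sequences of at least 75% G and C made up 0 of the 147 matched entries that were higher in Ago12_KO, 6 of the 37 that were lower and 3 of the 209 that were not called.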

How the data were processed

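The submitters deposited 1 table of read counts per mature miRNA for 10 small RNA libraries. Per the submitters' processing notes, Bowtie and mm10 were used. The labels' protocols name Trizol and the TruSeq small RNA kit. How reads were counted, with which miRBase release, and what was done with multi-mapping reads is not given in the sources used here. Deposited counts are whole numbers without normalization. In 42 entries every count shares a divisor above 1, such as 12 for miR-669a-5p.

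Counts were tested with edgeR 4.0.16 (R 4.3.3) in 1 quasi-likelihood fit of all 10 libraries, with column totals as library sizes, filterByExpr and Benjamini-Hochberg adjustment over the 481 entries kept. Arm balance was tested with limma 3.58.1, and shares with exact permutation tests (scipy 1.17.1). Where a group had no count, 3 counts over that group (5.18 CPM in Ago12_KO, 36.3 CPM in Dicer_KO) gave a bound, and with 1 to 3 counts the ratio of pooled shares has an exact 95% counting interval. On simulated counts the edgeR fit of Ago12_KO against Dicer_KO, run on 481 entries, recovered 11.67% of 2-fold, 47.22% of 4-fold and 79.41% of 8-fold changes, with 0 in the wrong direction. The simulation drew all groups from 1 pooled profile of the 10 libraries, with 1 spread for all entries. It held no shift like that of the 5 leading Dicer_KO entries, so it cannot speak to directions that depend on the totals.

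The lists and the entries to name were chosen with earlier results of these data known. The rule named up to 10 called entries with the highest and 10 with the lowest ratio among those with at least 50 CPM and groups that did not overlap, the 5 most abundant per group, and up to 3 per list. Which of these are printed was decided with their values known. Of 1907 entries, 1623 matched a RefSeq mature sequence, holding 82.5% to 85.4% of counts in the 4 libraries. Alternatives were TMM and DESeq2 1.42.0 size factors, no scaling, other totals and filters, the replicate number as a block, and leaving out each library, where the sample left alone takes its spread from the rest of the fit.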

Additional observations from a re-analysis of the deposited data

How the results depend on the processing

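The count of 185 higher and 43 lower entries stayed within 1.5 times under TMM factors, divided repeat counts, no filter, a minimum of 10 CPM, the 2 groups alone, a 2-fold minimum and DESeq2 with column totals. It was 70 and 76 with DESeq2 size factors in edgeR, 70 and 87 with DESeq2, 352 and 6 without scaling, 107 and 59 with totals that omit the fragment-like entries, and 66 and 80 without the 5 leading Dicer_KO entries (chosen after seeing the data). Leaving out a library gave 116 to 195 higher and 28 to 50 lower entries, and 14 to 22 hairpins with a changed arm balance against 23; that number was 8 of 12 with at least 100 counts and 14 with the 2 groups alone. Replicate numbers did not pair the libraries (correlation of deviations 0.02 over 481 entries), and with the replicate number as a block 177 entries were higher, 42 lower and 21 hairpins called.

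Without the 5 leading entries the share difference reversed to -19.5 percentage points for the miR-183 cluster (-3.74 without fragment-like entries), -0.90 for the Sfmbt2 families and -0.017 for the miR-15/16 family. It also reversed for the CUCAAAC seed, by a small margin. When a library was left out, the difference in first base U, 5.97, was between -0.74 without Dicer_KO replicate 2 and 12.7 without Dicer_KO replicate 1. Without the 5 leading entries the mean share of U was 60.9% in Ago12_KO and 64.5% in Dicer_KO. The difference in first base C was 6.67 without fragment-like entries. The difference in the less abundant WT arm, 2.90, was -1.70 without miR-92a and ran from -1.24 to 7.04 when a library was left out.

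The log2 fold change of miR-182-5p was -0.56 with either use of size factors and -0.66 without the 5 leading entries. For miR-293-5p it was -0.34 with TMM, -1.60 with size factors or DESeq2, -0.88 without fragment-like entries and -1.70 without the 5 leading entries, and between -0.11 and 0.19 when a library was left out. Without scaling it was 1.87 for miR-6539, 1.09 for miR-5099, 0.55 for miR-106b-5p, 0.66 for miR-183-5p, 1.72 for miR-21a-5p, 0.11 for miR-135b-5p, 0.041 for miR-135b-3p, 1.62 for miR-15b-5p, 1.87 for miR-3535 and 0.90 for miR-1983. The cause of these reversals was not tested, apart from the change of denominator itself. With 37476 counts in the smallest library, an entry under 80.1 CPM there is expected to have fewer than 3 counts.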
